A study of Mus musculus with 6 samples.

Results

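The genes described here are 10 members of the common gamma chain cytokine family, taken by name from the 26754 genes in the files: the receptor chains Il2ra, Il2rb, Il2rg, Il15ra, Il7r, Il21r and Il4ra, the ligand Il15, and the kinases Jak1 and Jak3. RNA came from cells pulled with magnetic beads against CD8a out of B16 melanoma tumours, which had been placed under the skin of female C57BL/6J mice aged 6 to 8 weeks. There were 3 libraries from day 14 and 3 from day 7 after implantation, all of the same strain and with no other treatment named in the labels. The labels do not say whether replicates came from separate mice or pools, so p-values measure only the spread between these samples.

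Cytokines of this family signal through receptors that share the gamma chain encoded by Il2rg. Each cytokine adds a private chain, such as IL-7 receptor alpha or IL-21 receptor, and IL-2 and IL-15 also share the beta chain encoded by Il2rb. The gamma chain carries the kinase JAK3 and the partner chain carries JAK1, and both kinases phosphorylate STAT factors once a ligand is bound. In CD8+ T cells, IL-7 and IL-15 are known for survival of naive and memory cells, and IL-2 for growth and effector function of activated cells. IL-15 is usually held by IL-15 receptor alpha on myeloid cells and handed to T and NK cells that carry the beta and gamma chains.

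Levels are RPKM, reads scaled by exon length and by all reads in genes, so that genes of different length can be compared. Libraries held 11385106 to 13316522 reads in genes on day 14 and 6523019 to 9313078 on day 7. Day 7 replicates 1 and 2 were close to what repeated sampling of 1 library would give: the squared difference per gene had a median 1.11 times that of sampling alone. The same measure reached 40.9 for replicate 1 and 44.4 for replicate 2 when set against day 7 replicate 3, and 4.05 to 4.43 among day 14 libraries, so day 7 replicates 1 and 2 were averaged and counted as 1 sample. This gives n = 3 on day 14 and n = 2 on day 7. Cd8a and Cd8b1, which encode the chains of the CD8 co-receptor, were detected in every library, but summed to 71.9 to 87.3 CPM (reads scaled by depth alone) on day 14 and 279 to 336 CPM on day 7, 3.88-fold lower on day 14. Reads of other cells were also present: 7 melanocyte genes summed to 24170 to 26496 CPM on day 14 and 13349 to 14076 on day 7.

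The question put to these genes is how the receptor side of IL-2 signalling, named in the title of the series, differed between the later and the earlier tumour. The shared beta and gamma chains and Jak3 made up a lower share of reads on day 14, by 3.45-fold to 6.01-fold. Set against T cell genes instead, Il2rg turned slightly above 0 and Il2rb and Jak3 lost their calls. Il4ra and Il7r overlapped between the days as a share of reads and gave no call, but were called higher on day 14 against T cell genes, as were most genes tested. Of the 10 members, 8 reached a mean of 20 CPM and were tested with limma. A gene was called when its p, adjusted over all 6691 genes tested by Benjamini-Hochberg, was under 0.05. Il2rb, Il2rg and Jak3 were called lower and 0 members were called higher, where 3.18% of all genes tested were called lower and 1.70% higher. At an unadjusted p under 0.05, limma gave 5 members lower and 0 higher, where 8.18% of all genes tested were lower and 11.3% higher. By limma-voom on reads recovered from the RPKM, 5 members were called lower and 0 higher, where 8.26% of all genes were called lower and 10.7% higher. The median log2 fold change was -0.90 over the 8 tested members and 0.16 over all genes tested. In 6 of the 10 members every day 14 library lay below every day 7 library, a pattern found in 17.8% of all genes tested, and in 0 of the 10 every day 14 library lay above, as it did in 31.6% of all genes tested.

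**Figure D1:**
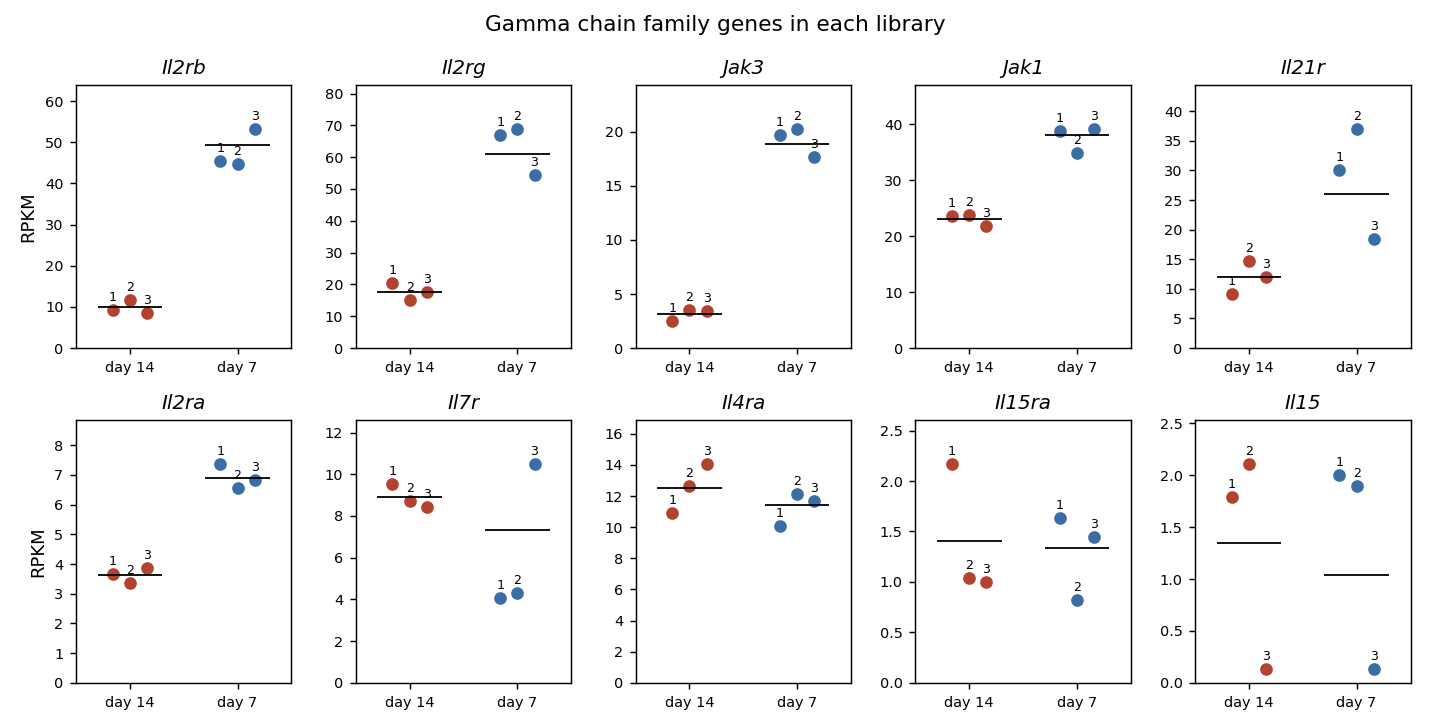
RPKM of the 10 members in each library, with day 14 left of day 7, numbers giving the replicate and bars the mean over the samples (day 7 replicates 1 and 2 count once). The 6 genes from Il2rb to Il2ra show no overlap between the days as a share of reads (per T cell transcript Il2rg, Jak1, Il21r and Il2ra turn above 0), while Il7r, Il4ra, Il15ra and Il15 overlap.

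The order of the levels differed between the days. On day 14 the highest mean level was that of Jak1, at 23.1 RPKM, followed by Il2rg, Il4ra, Il21r, Il2rb and Il7r, then Il2ra, Jak3, Il15ra and Il15. On day 7 the order began with Il2rg at 61.1 RPKM, Il2rb at 49.2 and Jak1 at 38.0, then Il21r, Jak3, Il4ra, Il7r, Il2ra, Il15ra and Il15. Neighbours whose libraries overlapped were Il4ra and Il21r, Il21r and Il2rb, Il2rb and Il7r, Il2ra and Jak3, and Il15ra and Il15 on day 14. On day 7 they were Jak1 and Il21r, Il21r and Jak3, Il4ra and Il7r, Il7r and Il2ra, and Il15ra and Il15.

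Both chains that receptors share fell per read, although Il2rg stood slightly above 0 per T cell transcript (0.092 on the log2 scale). Il2rb, encoding the chain that IL-2 and IL-15 have in common (chromosome 15, 78480553 to 78495066, minus strand of GRCm38), had 9.34, 11.8 and 8.52 RPKM in day 14 replicates 1 to 3, against 45.5, 44.8 and 53.3 RPKM in day 7 replicates 1 to 3. The days did not overlap, and the highest day 14 library lay far below the lowest day 7 library. Its mean was 9.88 ± 1.69 RPKM on day 14 (SD, n = 3) and 49.2 ± 5.72 RPKM on day 7 (SD, n = 2). This is 4.98-fold lower in mean RPKM. The log2 fold change, which limma took on RPKM + 1, was -2.21 ± 0.29 (SE), with a limma adjusted p of 0.00131. Only 0.344% of tested genes had a lower log2 fold change. Il2rg, the common gamma chain itself (chromosome X, 101264378 to 101268255, minus strand), had 20.5, 15.1 and 17.5 RPKM on day 14 and 66.8, 68.9 and 54.3 RPKM on day 7. Again no library of one day reached the range of the other. Its mean was 17.7 ± 2.73 RPKM on day 14 and 61.1 ± 9.57 RPKM on day 7 (SD, n = 3 and n = 2). Its log2 fold change, again on RPKM + 1, was -1.73 ± 0.27 (SE), with a limma adjusted p of 0.00389. Fewer cells of a type and less RNA of a gene in each cell cannot be told apart in such bulk samples. A gene model on the same strand, Gm20489, covers 728 of the 2387 exonic bases of Il2rg, and its own level was 22.0 to 28.8 RPKM on day 14 and 72.8 to 98.7 RPKM on day 7. The reads that belong to each of these models cannot be told apart here. Without day 7 replicates 1 and 2, which leaves replicate 3 alone on that day, the Il2rg call ended (log2 fold change -1.57, adjusted p = 0.0821, with a range of 1.39e-07 to 0.0821 over 17 alternatives per read).

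The kinase of the gamma chain fell per read as well. Jak3 (chromosome 8, 71676296 to 71690575, plus strand) stood at 2.48, 3.48 and 3.45 RPKM in the day 14 libraries and at 19.7, 20.3 and 17.7 RPKM in the day 7 libraries. All day 14 values were thus lower than all day 7 values. Its mean was 3.14 ± 0.571 RPKM on day 14 (SD, n = 3) and 18.8 ± 1.62 RPKM on day 7 (SD, n = 2), which is 6.01-fold lower on day 14. On the scale of log2(RPKM + 1) that limma was fitted to, the change was -2.27 ± 0.36 (SE), with a limma adjusted p of 0.00425. Jak3 shares 404 of 5352 exonic bases with Insl3, a hormone gene on the same strand, which had 8 to 12 reads on day 14 and 13 to 42 reads on day 7. Leaving out day 7 replicate 3 gave an adjusted p of 0.0506, and leaving out replicates 1 and 2 together gave 0.0740, over a range of 1.55e-09 to 0.0740 in 17 alternatives per read. Each of these leaves 1 sample on day 7, which is then assumed to vary as the 5 samples did.

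Jak1, which is used by the partner chains and by many other cytokine receptors (chromosome 4, 101152367 to 101265282, minus strand), gave no call per read and was higher on day 14 per T cell transcript. It had 23.6, 23.8 and 21.8 RPKM on day 14, against 38.8, 34.8 and 39.2 RPKM on day 7. The libraries of the days did not overlap, with means of 23.1 ± 1.09 RPKM on day 14 and 38.0 ± 1.69 RPKM on day 7 (SD, n = 3 and n = 2). The log2 fold change was -0.69, with a 95% interval of -1.22 to -0.17 and a limma adjusted p of 0.139. In 6 of 17 alternatives per read the gene was called lower, among them limma-voom (adjusted p = 0.00308, range 0.00308 to 0.420).

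The region around the start of these genes is shown for the called members that have one in the RefSeq promoter table (GRCm38.p6), together with Il7r, which gave no call and is the only member with a STAT-type element there. The table matched 8 of the 10 members with 9 promoters of 300 bases each, running from 250 bases before the start to 50 bases after it, and Il2rb and Il15 were not matched. Searched on both strands were TTCNNNGAA, the palindrome bound by STAT5, the same palindrome with 4 instead of 3 free bases, and the ETS-type letters CCGGAAG and CAGGAAG. Sequences run 5′ to 3′ on the strand of the gene, and capitals mark matches.
Il2rg, chrX:101268206-101268505, minus strand: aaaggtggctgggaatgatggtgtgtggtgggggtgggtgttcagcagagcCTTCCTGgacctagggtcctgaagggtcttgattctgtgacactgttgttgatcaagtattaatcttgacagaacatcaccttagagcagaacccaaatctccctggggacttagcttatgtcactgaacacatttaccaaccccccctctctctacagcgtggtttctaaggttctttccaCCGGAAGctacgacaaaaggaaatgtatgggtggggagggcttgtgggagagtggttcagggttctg
Jak3, chr8:71676133-71676432, plus strand: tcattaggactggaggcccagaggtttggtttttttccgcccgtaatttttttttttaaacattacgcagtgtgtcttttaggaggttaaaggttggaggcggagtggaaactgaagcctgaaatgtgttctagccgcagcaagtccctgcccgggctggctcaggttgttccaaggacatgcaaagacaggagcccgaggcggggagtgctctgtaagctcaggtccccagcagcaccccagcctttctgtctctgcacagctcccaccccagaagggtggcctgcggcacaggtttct
Il7r, chr15:9529827-9530126, minus strand: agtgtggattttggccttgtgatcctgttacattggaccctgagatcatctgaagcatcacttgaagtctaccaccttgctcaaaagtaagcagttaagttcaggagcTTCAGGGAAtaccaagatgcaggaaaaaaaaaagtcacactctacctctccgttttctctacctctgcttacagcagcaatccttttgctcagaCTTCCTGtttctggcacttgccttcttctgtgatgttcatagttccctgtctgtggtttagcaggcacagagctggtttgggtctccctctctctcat
Il2rg held 1 match to CCGGAAG, beginning 17 bases before the start, and 1 to CAGGAAG on the other strand. Jak3 held no match to any of the 4 motifs in this window. Il7r held 1 match to TTCNNNGAA, beginning 142 bases before the start, and 1 to CAGGAAG on the other strand. Among 32851 promoters of this length, 8.30% held TTCNNNGAA, 6.95% the palindrome with 4 free bases, 8.86% CCGGAAG and 13.3% CAGGAAG. Of the other members, the first of 2 Il15ra promoters held CCGGAAG, and those of Il2ra, Il21r, Il4ra and Jak1 held no match.

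Among the private chains, Il21r and Il2ra were lower per read in every day 14 library without being called, and both had values above 0 per T cell transcript, with intervals that include 0. Il21r, which completes the IL-21 receptor (chromosome 7, 125603429 to 125633570, plus strand), had 9.09, 14.6 and 12.04 RPKM on day 14 and 30.0, 37.0 and 18.4 RPKM on day 7. The days did not overlap, but day 7 replicate 3 lay well below the other day 7 libraries. The log2 fold change was -1.02 with a 95% interval of -1.96 to -0.084 and a limma adjusted p of 0.216, and 5 of 17 alternatives per read called it lower (adjusted p from 0.0247 to 0.760). Il2ra, the alpha chain that raises affinity for IL-2 and is also high on regulatory T cells (chromosome 2, 11642807 to 11693193, plus strand), had 3.66, 3.37 and 3.87 RPKM on day 14 and 7.38, 6.54 and 6.82 RPKM on day 7. Its libraries lay close together within each day and apart between the days. The log2 fold change of -0.77 had a 95% interval of -1.61 to 0.068 (limma adjusted p = 0.296), and 2 of 17 alternatives per read called it lower (adjusted p from 0.0312 to 0.662). Foxp3, the factor that defines regulatory T cells, had 5.92, 4.75 and 6.34 RPKM on day 14 and 6.98, 8.69 and 4.53 RPKM on day 7, and its part in the Il2ra levels was not tested.

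Il7r and Il4ra overlapped between the days. Il7r, the alpha chain of the IL-7 receptor and a marker of naive and memory T cells (chromosome 15, 9506161 to 9529876, minus strand), had 9.53, 8.74 and 8.43 RPKM on day 14, against 4.07, 4.28 and 10.5 RPKM on day 7. Day 14 libraries were alike, whereas day 7 replicate 3 exceeded all of them and replicates 1 and 2 stood below all of them. The log2 fold change was 0.36 with a 95% interval of -0.60 to 1.31 (limma adjusted p = 0.698). Without day 7 replicates 1 and 2 it was -0.22 (adjusted p = 0.934), and it was 0.93 without day 7 replicate 3, so its direction rests on which day 7 sample is kept. Il4ra, the alpha chain of the IL-4 receptor and, with another partner, of the IL-13 receptor, also on myeloid cells (chromosome 7, 125552120 to 125579474, plus strand), had 10.9, 12.6 and 14.1 RPKM on day 14 and 10.1, 12.1 and 11.7 RPKM on day 7. Day 14 replicates 2 and 3 lay above every day 7 library and replicate 1 within their range, with a log2 fold change of 0.12 and a 95% interval of -0.68 to 0.92 (limma adjusted p = 0.892), which turned to -0.028 under median-of-ratios scaling. The antisense model Gm44876 shares 571 of its 6002 exonic bases, and the strand setting of the counting is not given in the sources used here.

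The ligand side was scarce. Il15 (chromosome 8, 82331632 to 82403222, minus strand) had 1.79, 2.11 and 0.133 RPKM on day 14 and 2.00, 1.90 and 0.136 RPKM on day 7, from 46, 60 and 4 reads on day 14 and 36, 40 and 2 reads on day 7. Replicate 3 of each day was far below the other libraries, and the remaining values were alike on both days. Il15ra, the chain that presents IL-15 (chromosome 2, 11705290 to 11734317, plus strand), had 2.17, 1.04 and 0.997 RPKM on day 14 and 1.64, 0.821 and 1.45 RPKM on day 7. Its values overlapped between the days and rested on 34 to 110 reads per library. Reads came mostly in pairs from the same fragment of RNA, so both genes rested on fewer fragments than reads. Both genes were under the minimum of 20 CPM and were not tested in the fit used here. With no minimum, their log2 fold changes were 0.23 for Il15, with a 95% interval of -1.62 to 2.08, and 0.0063 for Il15ra, with an interval of -1.45 to 1.46.

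A ratio of members within a library does not depend on how libraries are scaled against each other. It can still depend on the mixture of cells, since its genes may be read from different cells, and this was not tested. Il4ra stood at 0.534, 0.839 and 0.805 of the level of Il2rg on day 14, against 0.152, 0.177 and 0.217 on day 7, so this ratio was higher in every day 14 library. The ratio of Il7r to Il2rg was 0.467, 0.582 and 0.484 on day 14 and 0.0623, 0.0635 and 0.195 on day 7. Il2ra was 0.399, 0.292 and 0.460 of the level of Il2rb on day 14 and 0.164, 0.148 and 0.130 on day 7, a 2.65-fold higher ratio of alpha to beta chain on day 14. Jak1 was 9.20, 6.69 and 6.18 times the level of Jak3 on day 14 and 1.96, 1.71 and 2.21 times on day 7. The Jak3 to Il2rg ratio was lower on day 14, at 0.125, 0.236 and 0.202 against 0.296, 0.295 and 0.327 on day 7. By contrast the ratio of Il2rb to Il2rg overlapped between the days, at 0.457, 0.783 and 0.489 on day 14 and 0.682, 0.651 and 0.981 on day 7.

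Of the 11 ratios compared, 7 were higher and 1 was lower on day 14 without overlap between libraries. Among all genes tested, taken singly, 31.6% lay wholly above and 17.8% wholly below on day 14, and no such share was computed for ratios. The 7 had an exact two-sided permutation p of 0.1, the smallest that 3 against 2 samples allow, or 0.157 adjusted over the 11 ratios. Jak3 to Il2rg had an exact permutation p of 0.2 and Il2rb to Il2rg one of 0.3. The 7 higher ratios were those of Il2ra to Il2rb and to Il2rg, Il15ra to Il2rb, Il7r and Il4ra to Il2rg, Jak1 to Jak3 and Il4ra to Jak1. All but the last have Il2rb, Il2rg or Jak3, the members called lower per read, as the denominator, so they are not separate results. No ratio can reach 0.05 in this design.

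**Figure D2:**
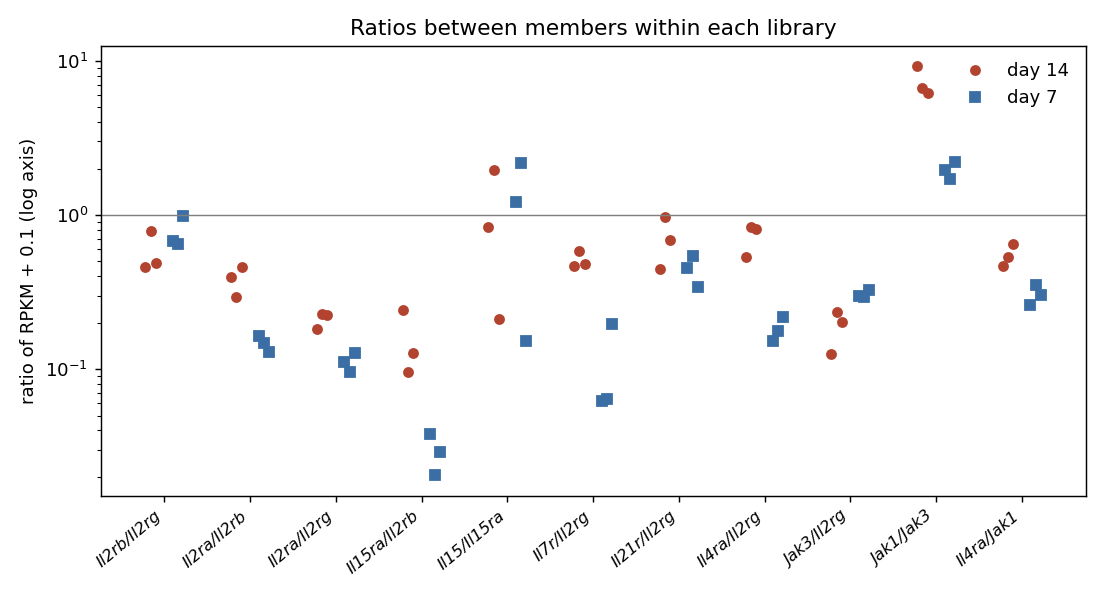
Ratios between members within each library on a log axis, with 0.1 RPKM added to both genes, circles for day 14 and squares for day 7. Jak1 to Jak3 lies between 6.18 and 9.20 in day 14 libraries and between 1.71 and 2.21 in day 7 libraries, while Il2rb to Il2rg and Il15 to Il15ra overlap.

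The place of a gene in the ranking of all detected genes needs no scale between libraries, but depends on how many genes are detected. More were detected on day 14 (18318 to 19053, against 13133 to 13806 on day 7), so a higher percentile there need not mean a higher level. Jak3 stood at the percentiles 44.7 to 54.0 on day 14 and 79.0 to 81.0 on day 7. Il2rb stood at 72.8 to 77.9 on day 14 and 91.2 to 92.9 on day 7. Il4ra was placed higher in every day 14 library, at 76.1 to 81.4, against 65.7 to 70.6 on day 7. So were Il7r, at 72.35 to 73.5 on day 14 and 42.5 to 68.25 on day 7, and Il15ra, at 29.8 to 41.9 on day 14 and 18.4 to 25.3 on day 7. The RPKM of Il4ra, Il7r and Il15ra overlapped between the days. Il7r stood at 68.25 with 10.5 RPKM in day 7 replicate 3, but at 72.6 with a lower 8.43 RPKM in day 14 replicate 3. How many other genes moved up in this ranking was not counted. Jak1 stood at 87.6 to 88.3 on day 14 and 88.7 to 90.1 on day 7.

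Position was shared by some members that differed in level. Il2ra and Il15ra lie 12.1 kb apart on chromosome 2 on the same strand, and their log2 differences were -0.77 and, with no minimum on reads, 0.0063. Il4ra and Il21r lie 24.0 kb apart on chromosome 7, also on the same strand, with log2 fold changes of 0.12 and -1.02. The difference within each of these pairs was not tested.

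Summed markers of T and NK cells, which carry these receptors, were also lower per read on day 14. A set of 12 T cell genes, among them Cd3d, Cd3e, Cd3g, Cd247, Trac, Trbc1, Trbc2, Cd2, Cd5, Cd6 and Lat, summed to 239 to 271 CPM on day 14 and 728 to 875 CPM on day 7, 3.13-fold lower on day 14. All 10 of these that were tested had negative log2 fold changes, and 5 were called lower. Cd5, which was not tested, had 4.29, 1.89 and 2.03 RPKM on day 14 and 1.15, 0.830 and 3.41 RPKM on day 7. The 7 NK cell genes, of cells that also carry the beta and gamma chains, summed to 67.3 to 71.8 CPM on day 14 and 346 to 496 CPM on day 7, 6.01-fold lower, and all 7 had reads in every library. The 6 genes of naive and memory T cells were at 74.7 to 82.2 CPM on day 14 and 213 to 293 CPM on day 7. Of the 2 of these that were tested, 1 was called lower. Ccr7, Lef1 and S1pr1 were lower in day 7 replicate 3 (2.33, 0.209 and 0.805 RPKM) than in any day 14 library. The 6 CD4 and regulatory T cell genes were at 115 to 131 CPM on day 14 and 226 to 234 CPM on day 7, and 0 of the 4 tested were called. The 10 macrophage and monocyte genes, of cells that can carry Il4ra, Il15 and Il15ra, were at 1114 to 1169 CPM on day 14 and 515 to 778 CPM on day 7. Of the 9 of these that were tested, Lyz2, C1qa, C1qb and Mrc1 were called higher, while 3 had negative log2 fold changes (Adgre1 at -0.27, C1qc at -0.053 and Fcgr1 at -0.54) and were not called. Lyz2 was the most abundant, at 376 to 392 RPKM on day 14 and 186 to 232 RPKM on day 7. Dendritic cell genes overlapped, at 67.5 to 86.1 CPM on day 14 and 64.2 to 147 CPM on day 7, and 4 of the 8 had no reads in at least 1 library. The part of each cell type in the members' levels was not tested. Of 11 lists compared, 9 had an exact permutation p of 0.1 (0.122 adjusted over the 11), the smallest possible.

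**Figure D3:**
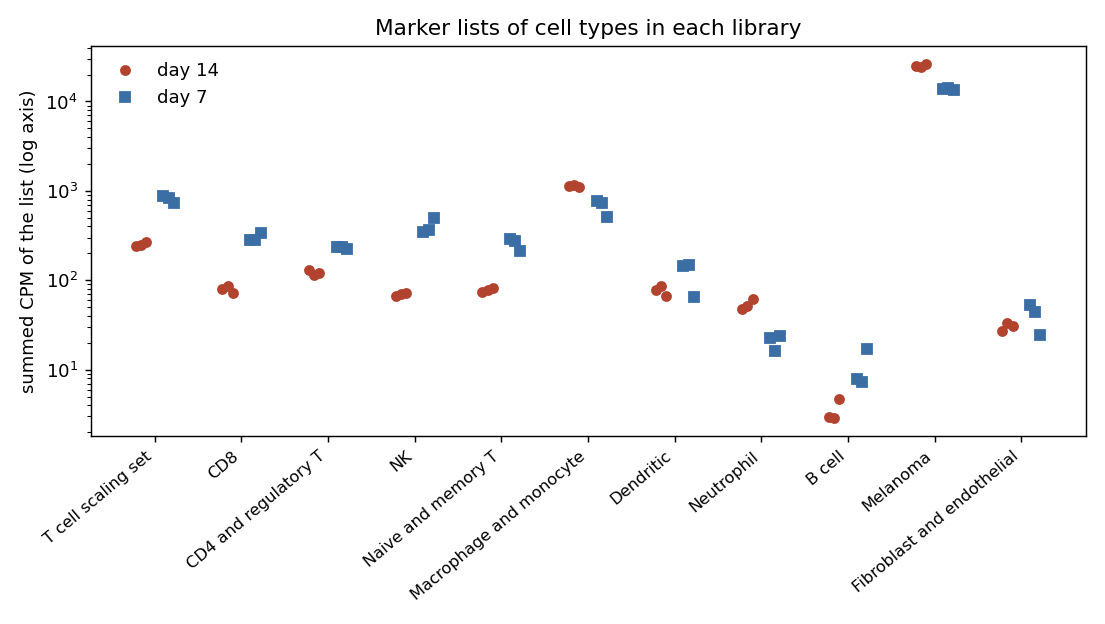
Summed CPM of each marker list in each library on a log axis, circles for day 14 and squares for day 7. The T cell set lies at 239 to 271 CPM on day 14 and 728 to 875 CPM on day 7, and the macrophage and monocyte genes lie at 1114 to 1169 CPM on day 14 and 515 to 778 CPM on day 7.

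Set against the T cell genes instead of all reads, most members no longer stood lower on day 14. The summed RPKM of the 12 T cell genes was 107, 109 and 124 for day 14 replicates 1 to 3, against 449 for the averaged day 7 replicates and 386 for replicate 3, and dividing by it put the median over the genes tested at 1.88 on the log2 scale. On this scale Il2rb was at -0.42, with a 95% interval of -1.08 to 0.23, and Jak3 at -0.64, with an interval of -1.43 to 0.15, so both stayed below 0 and lost their call (limma adjusted p = 0.204 and 0.116). Il2rg turned to 0.092, with an interval of -0.51 to 0.70, Il21r to 0.76, with -0.015 to 1.53, and Il2ra to 0.81, with -0.094 to 1.71. Jak1 turned to 1.13, with an interval of 0.47 to 1.79, Il4ra stood at 1.86, with 1.07 to 2.65, and Il7r at 2.01, with 1.07 to 2.95, and these 3 of the 8 were called higher, where 93.9% of all genes tested were called higher and 0.254% lower on this scale. All tested members but Il7r lay below the median of all genes on that scale, as they did per read. The division moves all genes of a library nearly alike, so this position is not a separate result. Whether the T cells themselves changed their level of any member cannot be told apart from a change in cell mixture here.

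**Figure D4:**
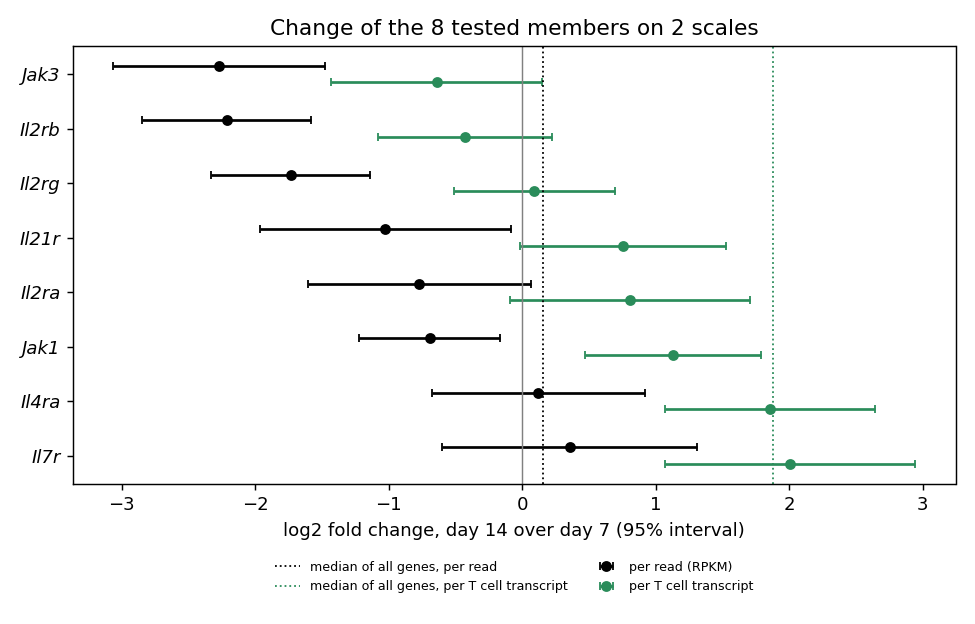
Log2 fold change, day 14 over day 7, of the 8 tested members with 95% intervals, in black per read and in green per T cell transcript; dotted lines mark the median of all genes on each scale (0.16 and 1.88). Jak3 and Il2rb lie below 0 on both scales, Il2rg, Il21r, Il2ra and Jak1 turn above 0 per T cell transcript, and Il4ra and Il7r lie above 0 on both.

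Beyond the members, 57 other genes of the pathway were listed, and 36 of them were tested, with 7 called lower and 0 higher, where 3.18% of all genes tested were called lower and 1.7% higher. At an unadjusted p under 0.05, limma gave 11 of the 36 lower and 1 higher, against 8.18% and 11.3% of all genes. By limma-voom 12 were called lower and 4 higher, against 8.26% and 10.7% of all genes. Their median log2 fold change was -0.26, against 0.16 for all genes tested. Other ligands of the family were almost without reads: Il21 and Il13 had none, and Il2, Il7, Il4 and Tslp had none in any day 7 library, at up to 1.35 RPKM on day 14. Fewer genes had any read on day 7 (13133 to 13806 per library, against 18318 to 19053 on day 14). A gene this low without reads on day 7 thus need not have differed between the days. Partner receptors were also under the minimum, with Il13ra1, which joins Il4ra in the IL-13 receptor, at 3.29, 2.23 and 1.90 RPKM on day 14 and 0.744, 0.636 and 0.909 RPKM on day 7. Crlf2, which joins Il7r in the receptor for TSLP, had 4.76, 4.26 and 2.71 RPKM on day 14 and 2.35, 2.01 and 9.02 RPKM on day 7, with replicate 3 above the other day 7 libraries as for Il7r.

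Of the other Janus kinases, Tyk2 fell per read to 4.89 ± 0.273 RPKM on day 14 (SD, n = 3), against 14.8 ± 1.27 RPKM on day 7 (SD, n = 2; limma adjusted p = 0.0312). Jak2 stood at 31.3 ± 3.51 RPKM on day 14 and 30.6 ± 6.82 RPKM on day 7 and gave no call. Stat5a and Stat5b, which act below IL-2 and IL-15, were chosen after their values were seen and gave no call, with log2 fold changes of -0.42 and 0.016. Of 8 phosphatases and inhibitors, Ptpn6 and Ptprc, the phosphatases SHP-1 and CD45 that most leukocytes carry, fell per read, with log2 fold changes of -1.03 and -1.49 (limma adjusted p = 0.00349 and 0.000479). Of 11 tested targets, Gzmb, Prf1 and Eomes fell per read, with log2 fold changes of -2.99, -2.48 and -1.59 (limma adjusted p = 4.67e-08, 0.000269 and 0.0233). Gzmb and Prf1 encode granzyme B and perforin of cytotoxic granules, and Eomes a factor of effector and memory cells. Among 10 tested genes of the adaptors and the PI3 kinase branch, 0 were called in either direction by limma, 1 was lower and 1 higher at an unadjusted p under 0.05, and limma-voom called 1 lower and 3 higher. The highest of them were Akt1 at 56.0 RPKM on day 14 and 40.9 on day 7, Grb2 at 28.4 on day 14 and 17.1 on day 7, and Pik3cd at 10.1 on day 14 and 22.0 on day 7. Per T cell transcript Tyk2, Ptpn6 and Ptprc turned above 0, to 0.26, 0.84 and 0.36. On that scale the Eomes call ended (-0.067, limma adjusted p = 0.873), while Gzmb at -1.12 and Prf1 at -0.65 were still called lower (1.75e-08 and 0.0253). Per read the NK cell genes were 6.01-fold lower on day 14 and the T cell genes 3.13-fold. The part of NK cells in the Gzmb and Prf1 values was not tested. Without day 7 replicate 3 the calls of Tyk2 and Eomes ended (adjusted p = 0.149 and 0.155), and without replicates 1 and 2 those of the same genes and of Ptpn6 ended (0.254, 0.188 and 0.0721). The call of Tyk2 also ended without day 14 replicate 2 (0.0538) or replicate 3 (0.0561), and that of Eomes with no minimum on reads (0.0614).

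The genes with the most similar profile were named for each called member by the root-mean-square difference of mean-centred log2(RPKM + 1) over the 5 samples. Nearest to Il2rb were H2-T22, Il18r1 and Prf1, at differences of 0.183, 0.183 and 0.187. Near to Jak3 were Il18r1 and H2-T22, at 0.0824 and 0.148. Nearest to Il2rg were Gimap5, Gbp8 and Gimap1, at 0.0752, 0.109 and 0.124. H2-T22, Gbp8 and the Gimap genes belong to families of close copies, so their values are uncertain.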

How the data were processed

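The deposited files hold RPKM for 26754 genes per library. The authors made these values with Trimmomatic 0.36 and featureCounts of Subread 1.5.1 on GRCm38, per the submitters' processing notes, from a stranded kit with molecular identifiers, per the labels' protocols. The aligner, strand setting and collapsing of identifiers were not given in the sources used here. Whole reads were recovered for 100% of values (tolerance 0.05), which gave the depth. Among genes with few reads, 75.6% to 87.7% of read numbers per library were even. Reads thus came mostly in pairs from the same fragment, and all read numbers given here exceed the number of fragments. Standard errors reflect the spread between samples.

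Day 7 replicates 1 and 2 were averaged, since their reads differed by about the sampling noise. limma 3.58.1 in R 4.3.3 was fitted to log2(RPKM + 1) with 1 coefficient for the day, over genes that averaged at least 20 CPM. Fold changes are on this scale and understate changes of low genes. Precision weights per day came from loess fits of the variance against the mean log2(RPKM + 1) (span 0.3, floor 0.005), and moderated statistics used a trend. On simulated reads with known changes, the fit recovered 10.8% of 2-fold changes and more of larger ones, and 5.12% of its calls were false. A gene without a call may therefore still have changed. Ratios and marker sums used exact two-sided permutation tests over 5 samples. Motifs were searched in promoters of RefSeq.

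Members and lists were chosen with earlier results of these data known. Named genes are all members, called pathway genes with up to 6 per list, up to 3 of the highest genes of a list without calls, and the 3 nearest profiles of each called member; a few that the rule names are not reported here. Alternatives covered filter, pseudocount, weights, scaling, tool, replicate block, single libraries and left-out libraries. The variance trend on mean CPM and the block without weights were added after seeing the data.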

Additional observations from a re-analysis of the deposited data

How the results depend on the processing

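Per read, the Il2rb call held in all 17 alternatives run and Il2rg and Jak3 stayed below 0 in all of them. The number of genes called moved from 327 (114 higher and 213 lower on day 14) to 1465 with no minimum on reads, 1481 with an RPKM of 1 in 2 samples, 1011 without weights, 680 with the variance trend on mean CPM, 1268 by limma-voom, 1594 with 6 libraries counted singly and 6302 per T cell transcript (6285 higher and 17 lower). It ranged from 129 to 336 with libraries left out, and was 151 without day 7 replicate 3. Median-of-ratios scaling gave 62 higher and 291 lower, with a median over all genes of 0.010. Members called numbered 5 by limma-voom and by the trend on mean CPM, 6 with libraries counted singly, and 1 to 3 with libraries left out. The cause of these shifts was not tested.

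Reversed directions were, per T cell transcript, Il2ra 0.81, Il21r 0.76, Il2rg 0.092, Jak1 1.13, Tyk2 0.26, Ptpn6 0.84 and Ptprc 0.36, then Il4ra -0.028 under median-of-ratios scaling and Il7r -0.22 without day 7 replicates 1 and 2 (0.93 without replicate 3). With a replicate block over 6 libraries, 1153 genes and 6 members were called, or 1159 genes and 5 members without weights. Deviations of same-numbered libraries from the mean of their day had correlations of -0.014, -0.015 and -0.034 across genes. Day 7 replicates 1 and 2 were nearly alike, so these correlations cannot settle whether the numbers pair the samples. Il15 rested on the fewest reads of the members, at 2 to 60 per library.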
